A study of Caenorhabditis elegans with 2 samples.

Results

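The regions described here are the distal intergenic regions of a chromatin immunoprecipitation sequencing (ChIP-seq) experiment in Caenorhabditis elegans. They are stretches of DNA between genes, away from protein-coding gene ends, at which the immunoprecipitated library gave a listed signal. They were taken from the list of 30000 regions made from both replicates pooled. A region was included when its summit lay outside every annotated gene of any class, more than 1000 bp from every protein-coding 5′ end, more than 300 bp from every protein-coding 3′ end and more than 500 bp from every tRNA, snoRNA or snRNA gene. No distance was set from other noncoding genes or from pseudogenes, so a summit could lie close to one. The rule left 3659 of the 30000 regions (12.2%), and no signal value entered the choice. Of the remaining regions, 3994 also had the summit outside every gene but nearer to a gene end or a small RNA gene, and 22347 had it inside a gene.

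The worms were of strain OP208, which carries unc-119(ed3) III and the integrated transgene wgIs208, a fusion of nhr-27 to enhanced green fluorescent protein (eGFP). The tagged gene is nhr-27 in most fields of the labels, among them the antibody, but NHR-270 in a free-text remark about the strain, and the data do not settle which is right. Larvae were synchronised by starvation after bleaching of adults, and whole young adults of mixed sex were collected at 78 h. Chromatin was sheared to between 200 and 800 bp and precipitated with an antibody against GFP. The libraries are 2 biological replicates of 1 group, there is no second condition, and the labels do not say that the worm's own nhr-27 was removed. Chromatin of all tissues was mixed, and the assay reads no RNA, so tissue markers could not be checked. Read depth is unknown, because the deposited lists hold signal values and not read counts. The signal has no stated scale, and intervals given below are exact binomial 95% intervals that cover counting error over regions only.

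Nuclear hormone receptors are transcription factors with a zinc-finger DNA-binding domain, and the worm has many more of them than most animals. Such factors act at promoters and at enhancers, and in the compact worm genome most known regulatory sites lie close to a gene's start, so that sites far from any gene are a minority. On the X chromosome of hermaphrodites, DNA between genes also holds recruitment sites for the dosage compensation complex, a condensin-based machine that lowers transcription from both X chromosomes. These sites share a short GC-rich motif.

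The 6 distal intergenic regions of highest pooled signal all lay on the X chromosome. The sequences at their summits are printed here because short words recur among them. The region between F22H10.2 and F22H10.11 was added as the remaining X region above the threshold that held the recruitment word, and the highest region of another chromosome, between F58D12.1 and F58D12.3, for contrast. Each window runs 100 bp to each side of the summit, is written 5′ to 3′ on the plus strand of WBcel235 from the RefSeq genome, and is named by the flanking protein-coding genes. Capitals mark GCGCAGGG, which is contained in the motif of the dosage compensation recruitment sites, and GCGAAGGG, which differs from it in 1 base, or their reverse complements CCCTGCGC and CCCTTCGC.
adm-2/K02D3.1 (chrX:13700814-13701014): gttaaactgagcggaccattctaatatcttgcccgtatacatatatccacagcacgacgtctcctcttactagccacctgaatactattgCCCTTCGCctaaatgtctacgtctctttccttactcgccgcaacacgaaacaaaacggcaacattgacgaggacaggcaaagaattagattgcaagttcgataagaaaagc
ZK899.6/gap-2 (chrX:9465796-9465996): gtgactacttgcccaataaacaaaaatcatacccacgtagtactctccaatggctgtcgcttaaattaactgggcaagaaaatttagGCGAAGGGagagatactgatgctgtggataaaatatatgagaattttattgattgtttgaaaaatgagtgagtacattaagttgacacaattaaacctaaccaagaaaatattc
W04G3.11/W02H3.3 (chrX:11094056-11094256): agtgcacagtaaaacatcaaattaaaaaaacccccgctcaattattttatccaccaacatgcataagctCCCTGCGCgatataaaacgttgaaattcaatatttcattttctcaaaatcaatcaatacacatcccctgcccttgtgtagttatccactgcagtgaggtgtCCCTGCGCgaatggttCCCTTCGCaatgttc
F20B6.9/hpk-1 (chrX:4209152-4209352): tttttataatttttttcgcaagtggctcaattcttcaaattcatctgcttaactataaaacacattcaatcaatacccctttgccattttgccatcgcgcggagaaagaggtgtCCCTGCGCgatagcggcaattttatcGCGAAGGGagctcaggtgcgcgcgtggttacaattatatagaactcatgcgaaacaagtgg
gtr-1/F25E2.2 (chrX:806545-806745): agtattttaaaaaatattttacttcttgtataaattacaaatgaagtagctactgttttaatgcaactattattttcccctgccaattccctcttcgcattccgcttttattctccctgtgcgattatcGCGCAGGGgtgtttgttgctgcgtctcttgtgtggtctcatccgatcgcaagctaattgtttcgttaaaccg
dot-1.4/F55G7.5 (chrX:11937454-11937654): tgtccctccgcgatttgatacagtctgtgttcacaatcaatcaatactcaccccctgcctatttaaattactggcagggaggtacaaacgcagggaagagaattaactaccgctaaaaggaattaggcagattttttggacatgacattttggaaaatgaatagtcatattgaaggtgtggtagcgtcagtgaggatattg
F22H10.2/F22H10.11 (chrX:16681984-16682184): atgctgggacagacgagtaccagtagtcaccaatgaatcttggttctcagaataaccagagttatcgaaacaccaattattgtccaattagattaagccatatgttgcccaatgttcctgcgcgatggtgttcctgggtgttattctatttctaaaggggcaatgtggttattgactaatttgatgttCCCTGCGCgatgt
F58D12.1/F58D12.3 (chrV:14055168-14055368): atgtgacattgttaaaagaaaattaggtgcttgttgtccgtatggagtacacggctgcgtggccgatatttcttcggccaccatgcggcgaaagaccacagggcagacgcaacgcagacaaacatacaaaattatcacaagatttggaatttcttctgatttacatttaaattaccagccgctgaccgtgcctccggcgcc

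Word counts were made in these windows at all 30000 summits, on either strand. GCGCAGGG was held by 59 of the 30000 windows (0.197%) and by 16 of the 3659 distal intergenic windows (0.437%), against 0.109% of windows 400 bp to the side of the distal summits. On the X it was held by 9 of 949 distal windows (0.948%), and on the autosomes by 7 of 2710. GCGAAGGG was held by 67 of all windows (0.223%) and by 13 distal ones (0.355%), of which 7 were on the X. Both words were chosen after the signal values were known, and GCGAAGGG was noticed in the printed sequences themselves, so the counts below are descriptions of these sequences.

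The deposited list of regions that passed an irreproducible discovery rate threshold over both replicates, called thresholded regions here, held 393 regions, or 1.31% of the pooled list. Of the distal intergenic regions 29 were thresholded (0.793%, interval 0.531 to 1.14%). The share was 3.36% in the intergenic regions nearer to gene ends and 1.03% in regions inside genes. Overlap by at least 1 bp gave the same order: 41 distal regions overlapped a thresholded region (1.12%, interval 0.805 to 1.52%), against 1.70% of all regions. The 12 that only touched one had signals of 30.8 to 60.4 and ranked 2548th at best.

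The pooled signal of the distal intergenic regions ran from 28.5 to 197, with a median of 36.9 and quartiles of 32.2 and 44.4. The median over all regions was 38.1 and over the nearer intergenic regions 39.3. The upper tail was shorter than in the whole list, with 72 distal regions among the 1000 highest (1.97% of them, against 3.33% of all regions) and 7 among the 100 highest. Of those 7, 6 were on the X. The lowest thresholded distal region had a pooled signal of 92.1, and the highest that was not thresholded had 91.2. Among distal regions the thresholded ones are thus the upper tail of pooled signal, and the thresholded share is not a separate readout from it. All distal regions were 390 bp wide, and 511 of them (13.97%) overlapped another pooled region, against 17.4% of all regions.

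Thresholded distal regions were found on every chromosome, and 13 of the 29 were on the X (44.8%, interval 26.4 to 64.3%). Of the 364 thresholded regions that were not distal intergenic, 20.3% were on the X. The X held 949 distal regions in all, 25.9% of them, and 24.4% of the DNA that met the rule. The thresholded share was 1.37% on the X (interval 0.731 to 2.33%) and 0.590% on the autosomes (16 of 2710, interval 0.338 to 0.957%), and these intervals overlapped. Over all regions the corresponding shares were 1.59% on the X and 1.25% on the autosomes. The distal share was thus near that of the whole list on the X and below it on the autosomes. Among the 393 highest regions of replicate 1's own list, 9 of the 24 distal ones were on the X, and of replicate 2's own list 16 of 29.

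**Figure D1:**
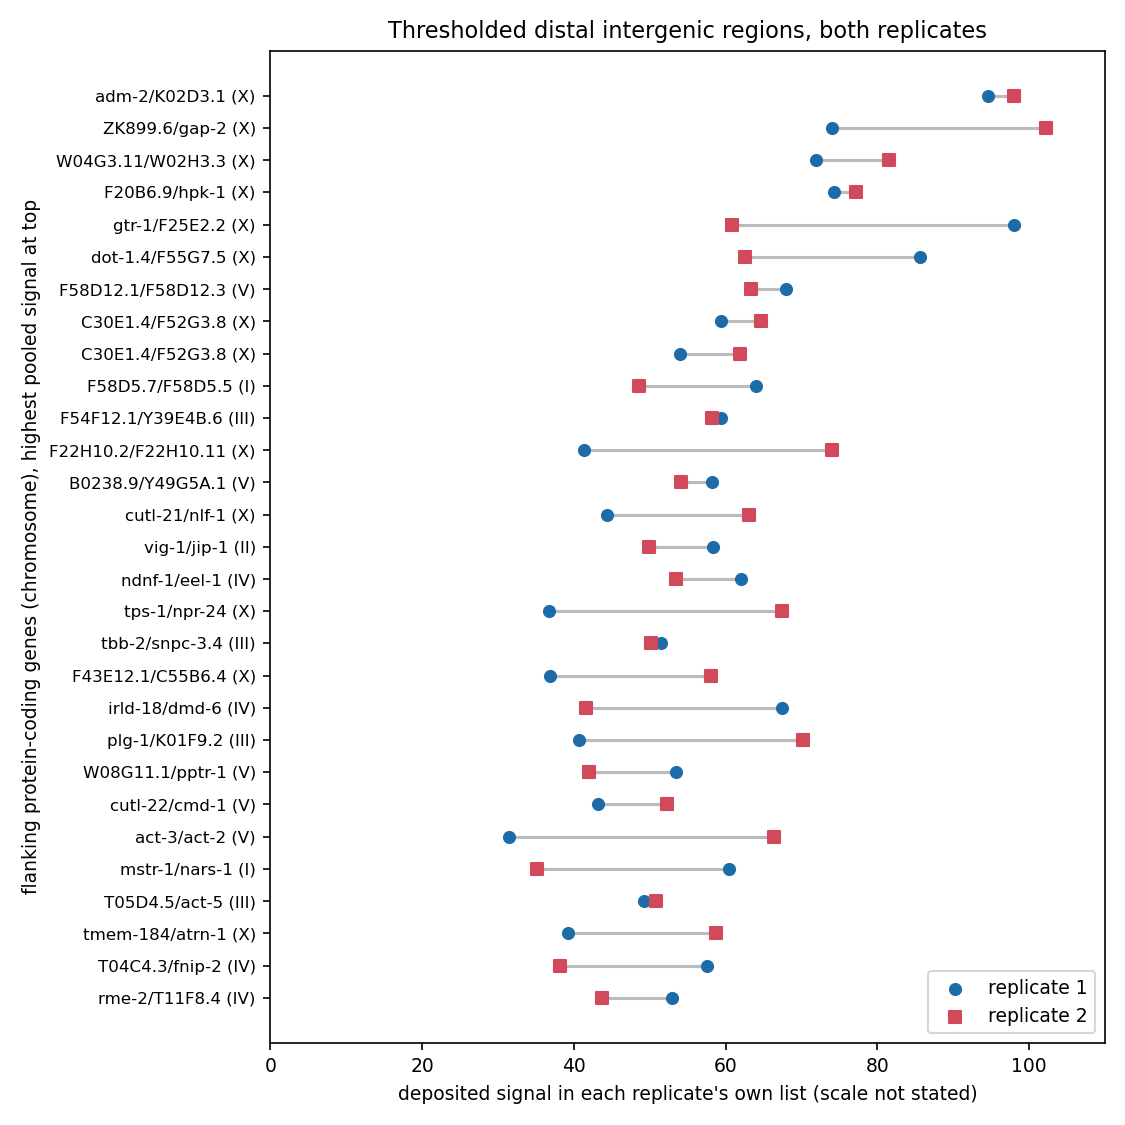
Deposited signal of the 29 thresholded distal intergenic regions in replicate 1 (circles) and replicate 2 (squares), 1 row per region, named by its flanking protein-coding genes with the chromosome in brackets and ordered by pooled signal. The 6 highest rows are all on the X, and 11 of the 13 X rows have the square to the right, against 4 of the 16 autosomal rows.

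The highest distal region lay between adm-2, which encodes an ADAM metalloprotease, and K02D3.1 (chrX:13700719-13701108), 5113 bp from the first gene and 5993 bp from the second. Its pooled signal was 197, rank 16 of the whole list, and its signal was 94.7 in replicate 1 and 98.1 in replicate 2 (mean 96.4 ± 2.4, SD, n = 2). The replicates were close together here. The window held GCGAAGGG and not the recruitment word.

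The second region, between ZK899.6 and gap-2, a Ras GTPase-activating protein gene, had signals of 74.0 and 102 in replicates 1 and 2 (pooled 170, rank 27). The third, between W04G3.11 and W02H3.3 in a convergent pair, had 71.9 and 81.6 (pooled 154). It held the recruitment word at 2 places in the same orientation and GCGAAGGG at 1, and its nearest tRNA gene was 1517 bp away. The region between F20B6.9 and hpk-1, which encodes a homeodomain-interacting protein kinase, had 74.3 and 77.2 (pooled 153, mean 75.7 ± 2.0, SD, n = 2) and held both words. A second, weak region of the same gap, at chrX:4208469-4208858, also held the recruitment word, with a pooled signal of 29.3 at rank 28537.

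The fifth region lay 346 bp beyond the 3′ end of F25E2.2, on the side facing gtr-1, a gene for a G protein-coupled receptor. Its signal was 98.0 in replicate 1 and 60.9 in replicate 2 (pooled 152), a wider spread than at the adm-2 region. The region between dot-1.4, of the DOT1 histone methyltransferase family, and F55G7.5 had 85.7 and 62.6 (pooled 149) and held neither word. The replicates therefore differed in which of these 6 X regions ranked highest, while each of the 6 was above 60 in both.

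Among the other X regions, the gap between C30E1.4 and F52G3.8 held a pair of thresholded regions that were not adjacent. Their pooled signals were 121 (chrX:16944558-16944947) and 120 (chrX:16929549-16929938). The noncoding gene C30E1.9 filled most of the DNA between them, with its ends 70 bp from the summit of the first and 170 bp from that of the second. A pseudogene lay 105 bp from the first summit on its other side, and the nearest tRNA gene was 1403 bp from the second. The region between F22H10.2 and F22H10.11 had 41.3 and 74.1 (pooled 113). The region between cutl-21, a cuticlin-like gene, and nlf-1, needed to localise the NCA sodium leak channel in neurons, had a pooled signal of 109. It lay 630 bp from rncs-1, a noncoding RNA known to inhibit Dicer, and the sequence of 36 bases at its summit occurred 75 times in the genome. The remaining X regions lay between tps-1, a trehalose-6-phosphate synthase gene, and npr-24 (102), between F43E12.1 and C55B6.4 (99.96) and between tmem-184 and atrn-1 (93.2).

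The 16 autosomal thresholded regions had pooled signals of 92.1 to 130, with a median of 98.2, while the 13 on the X had a median of 121. The highest, between F58D12.1 and F58D12.3 on chromosome V, had 67.9 and 63.4 in replicates 1 and 2 (mean 65.7 ± 3.2, SD, n = 2). Others, given here by their flanking genes, were the gap between the actin genes act-3 and act-2 (pooled 94.6), the divergent gap between tbb-2, a beta-tubulin gene, and snpc-3.4 (100.4), the gap between cutl-22 and cmd-1, the calmodulin gene (95.9), and the gap between mstr-1 and nars-1, the asparaginyl-tRNA synthetase gene (94.3). Their replicate signals were not equally close. At act-3/act-2 they were 31.5 and 66.3, and at tbb-2/snpc-3.4 they were 51.5 and 50.2.

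Further autosomal thresholded regions are given with what is known of a flanking gene. That between plg-1, which encodes the mucin of the male copulatory plug, 12629 bp away, and K01F9.2 was 268 bp from the microRNA gene mir-80 and had 40.7 and 70.2 (pooled 97.2). That between T05D4.5 and act-5, the intestinal microvillus actin, had 49.2 and 50.9 (pooled 94.2). That between rme-2, the oocyte yolk receptor, and T11F8.4 had 52.9 and 43.7 (pooled 92.1), the lowest of the 29. That between irld-18 and dmd-6, a DM-domain transcription factor gene, had 67.5 and 41.6 (pooled 99.2). Of all 29, 19 had a gene that is not protein-coding as the nearest annotated gene on at least 1 side. The same count was not made over all distal regions.

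On the X, distal regions with the recruitment word had higher signals than those without it, while on the autosomes the medians were close. The 9 X distal regions with GCGCAGGG had a median pooled signal of 74.7, and the 940 without it 37.3. Of the 9, 4 were thresholded (44.4%, interval 13.7 to 78.8%), against 9 of the 940 (0.957%, interval 0.439 to 1.81%). On the autosomes the 7 regions with the word had a median of 39.7 and the 2703 without it 36.8, and 0 of the 7 were thresholded (interval up to 41.0%). Not every X region with the word was high: the region between F19G12.1 and sedl-1 had 31.3, that between dve-1 and F52D1.2 had 43.04, and that between sdn-1, the syndecan gene, and flp-19 had 50.9, while that between col-185 and cdk-4 had 74.7. In the DNA that met the rule the word occurred 25 times on the X (5.38 per Mb) and 40 times on the autosomes (2.78 per Mb).

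Outside the distal class, 8 of the 15 X regions with the word were thresholded (53.3%, interval 26.6 to 78.7%). Of all 4522 X regions there, 74 were thresholded (1.64%). The word was chosen with the signals of this list known, so these counts are no independent check. Over the whole list 12 of 24 X regions with the word were thresholded and 1 of 35 autosomal ones. GCGAAGGG was held by 5 of the 13 thresholded X distal regions, namely adm-2/K02D3.1, ZK899.6/gap-2, W04G3.11/W02H3.3, F20B6.9/hpk-1 and F43E12.1/C55B6.4, and by 4 of the 74 other thresholded X regions. One or other of the words was held by 7 of the 13, by 8 of the 74 and by 0 of the 16 thresholded autosomal distal regions. A further word noticed in the printed sequences, CAATCAAT, was held by 4 of the 13, namely ZK899.6/gap-2, W04G3.11/W02H3.3, F20B6.9/hpk-1 and dot-1.4/F55G7.5, by 0 of the 74 and by 0 of the 16. It was held by 1.15% of distal windows, 1.26% of their flanks and 1.45% of all windows. All 4 thresholded X windows with CAATCAAT are printed above, and the word was picked by reading those sequences. Its contrast with the 74 and the 16 was therefore largely fixed by the choice and is no independent check. GCGAAGGG was read from the same sequences, and its counts carry the same limit. A word is a match of letters and not a bound site.

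**Figure D2:**
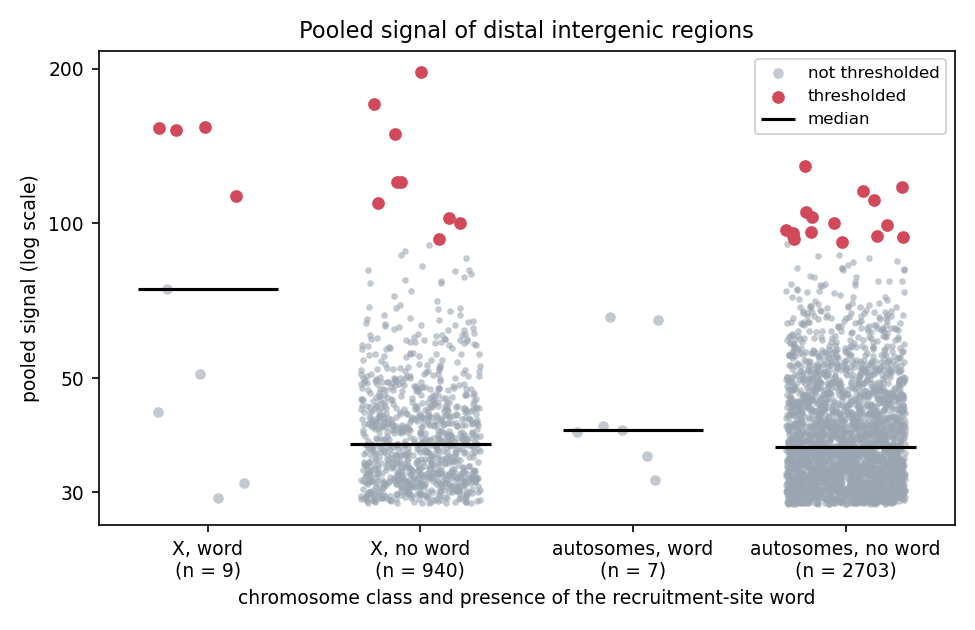
Pooled signal (log axis) of each distal intergenic region, split by chromosome class and by whether GCGCAGGG lies within 100 bp of the summit. Lines are medians and red points are thresholded regions. The 9 X regions with the word have a median of 74.7, and the other groups have medians of 36.8 to 39.7.

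The words listed for nuclear receptors and other general factors were also counted. AGGTCA, the core half-site that many nuclear hormone receptors read, was held by 7.84% of distal windows, 5.85% of their flanks and 5.57% of all windows. In the thresholded distal regions 1 of 29 held it (interval 0.0873 to 17.8%), against 7.14% of the other thresholded regions. AGTTCA, a variant half-site, was held by 11.5% of distal windows, 13.9% of their flanks and 11.75% of all windows. Of the 29, 1 held it, against 13.7% of the other thresholded regions. A count of 29 is too small to place either share above or below that of all distal windows.

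GAGAGA, a word of repeated GA dinucleotides, was held by 20.3% of distal windows, 11.3% of their flanks and 15.1% of all windows, and by 9 of the 29 thresholded distal regions. Of the other thresholded regions 27.2% held it. The 9 were 2 of the 13 on the X and 7 of the 16 on the autosomes, while among the other thresholded regions the shares were 33.8% on the X and 25.5% on the autosomes. CACGCG was held by 4 of the 13 and 0 of the 16, against 12.2% and 12.8% of the other thresholded regions, and by 3.47% of distal windows and 3.71% of all windows. TTTCAG, the splice acceptor consensus of worm introns, was held by 22.0% of distal windows, 30.2% of their flanks and 30.2% of all windows. Runs of A or T (AAAAAAAA) were held by 18.5% of distal windows and 27.9% of their flanks, and by 13.8% of all windows and 21.8% of theirs. GTTCGA, found in the B box of tRNA genes, was held by 7.43% of distal windows and 6.41% of their flanks, and by 8.80% of all windows and 7.67% of theirs. GAGAGA and CGAGAG (8.61% of distal windows) can overlap.

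Summits were richer in G and C than the DNA around them. The mean GC content of distal windows was 40.1%, against 34.2% in windows 400 bp away, a difference of 5.85 percentage points, while over all regions the difference was 4.93 points. In the 29 thresholded distal regions the mean was 44.9% and the difference from the flanks 11.6 points, larger on the X (13.9 points) than on the autosomes (9.69 points). The thresholded regions outside the distal class had a difference of 8.65 points. GC content of single thresholded distal windows ran from 27.4% at rme-2/T11F8.4 to 58.7% at cutl-21/nlf-1.

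Worm autosomes have gene-dense centres and repeat-rich, fast-recombining arms, and the X is more even. With the arms set as the outer 25% of a chromosome at each end, 51.9% of distal regions lay on arms (1900 of 3659, interval 50.3 to 53.6%). The arms held 51.8% of the DNA that met the rule, so the density was the same on both, 193 regions per Mb of that DNA on arms and 192 in centres. Over the whole list 46.4% of regions lay on arms. The higher arm share of the distal regions thus matched where DNA that met the rule lies.

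Single chromosomes differed in both directions. On IV the density was 135 per Mb on arms and 173 in centres, and on the X it was 220 on arms and 186 in centres. On the autosomes together it was 183 and 194. IV had the lowest density of any chromosome, 150 per Mb, and III the highest, 224 per Mb. Without the X, 49.6% of distal regions were on arms.

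The signal of arm and centre regions was close, with medians of 36.8 and 37.1. Of the thresholded regions 18 were on arms (0.947%, interval 0.562 to 1.49%) and 11 in centres (0.625%, interval 0.313 to 1.12%). On the X they were 9 on arms and 4 in centres, and on the autosomes 9 and 7. The intervals of arms and centres overlapped.

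**Figure D3:**
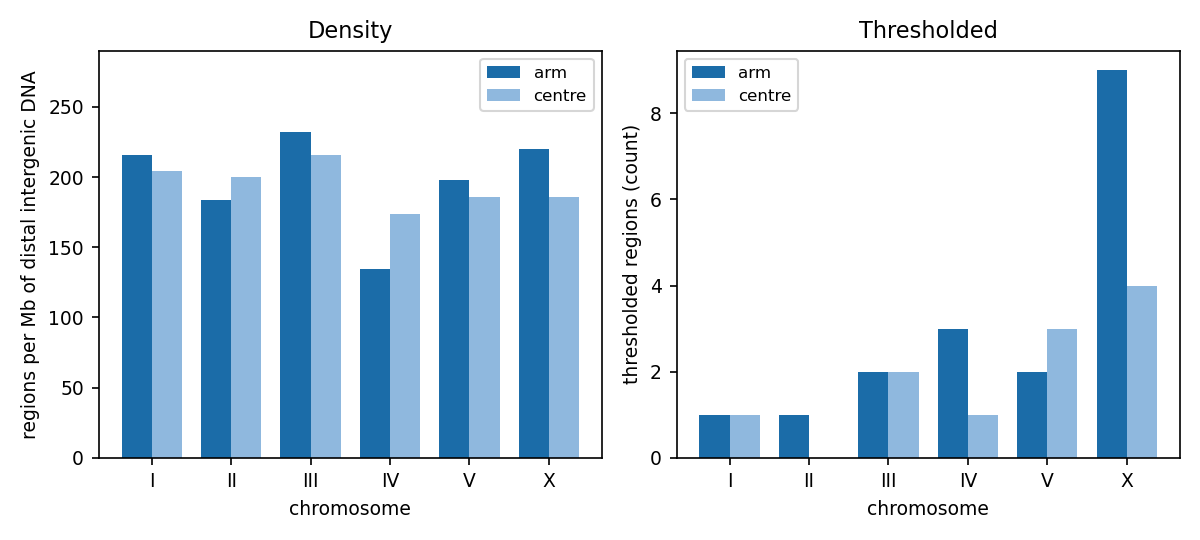
Left, distal intergenic regions per Mb of DNA that met the rule, by chromosome, on arms (dark) and in centres (light). Right, the count of thresholded distal regions. Chromosome IV has the lowest arm density (135 per Mb), and the X arms hold 9 of the 29 thresholded regions.

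Distal regions held fewer repeat bases than the DNA they were drawn from. Soft-masked bases, which mark repeats in the reference, made up 29.7% of distal regions and 42.6% of the DNA that met the rule, and 24.5% of all regions. On arms the figures were 34.0% of distal regions against 47.4% of the DNA, and in centres 25.1% against 37.4%. The sequence of 36 bases at the summit occurred more than once in the genome for 114 distal regions (3.12%, against 2.21% of all regions). Of the thresholded distal regions 2 (6.90%) were of this kind, against 4.40% of the other thresholded regions: cutl-21/nlf-1, and B0238.9/Y49G5A.1 on V with 4 copies and 96.9% soft-masked bases. How the reads of repeated sequence were placed was not given in the sources used here.

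Distal DNA was less dense in regions than the genome. The DNA that met the rule came to 19.04 Mb, 18.99% of the 100.3 Mb of the chromosomes, and held 192 regions per Mb, while the whole list gave 299 per Mb. In intergenic DNA that met the other conditions, density fell from 298 per Mb within 250 bp of a protein-coding 5′ end to 205 per Mb at 750 to 1000 bp. Beyond the limit of 1000 bp it changed little out to 5000 bp, with 206 per Mb at 1000 to 1500 bp and 200 at 3000 to 5000 bp. It was 178 per Mb at 5000 to 10000 bp and 96.3 per Mb beyond that, where 78 regions lay.

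The thresholded share fell over the same distances, from 2.12% within 250 bp and 2.53% at 250 to 500 bp to between 0.527 and 1.28% in every bin from 500 bp outward. The rule's limit fell inside this flat stretch. The 137 regions from 1001 to 1100 bp had a median signal of 38.6 and 2 thresholded regions, and the 161 from 901 to 1000 bp had a median of 37.6 and 1. The thresholded distal regions lay 1019 to 11493 bp from the nearest 5′ end, with a median of 2572 bp, and 20 of the 29 were over 2000 bp away.

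**Figure D4:**
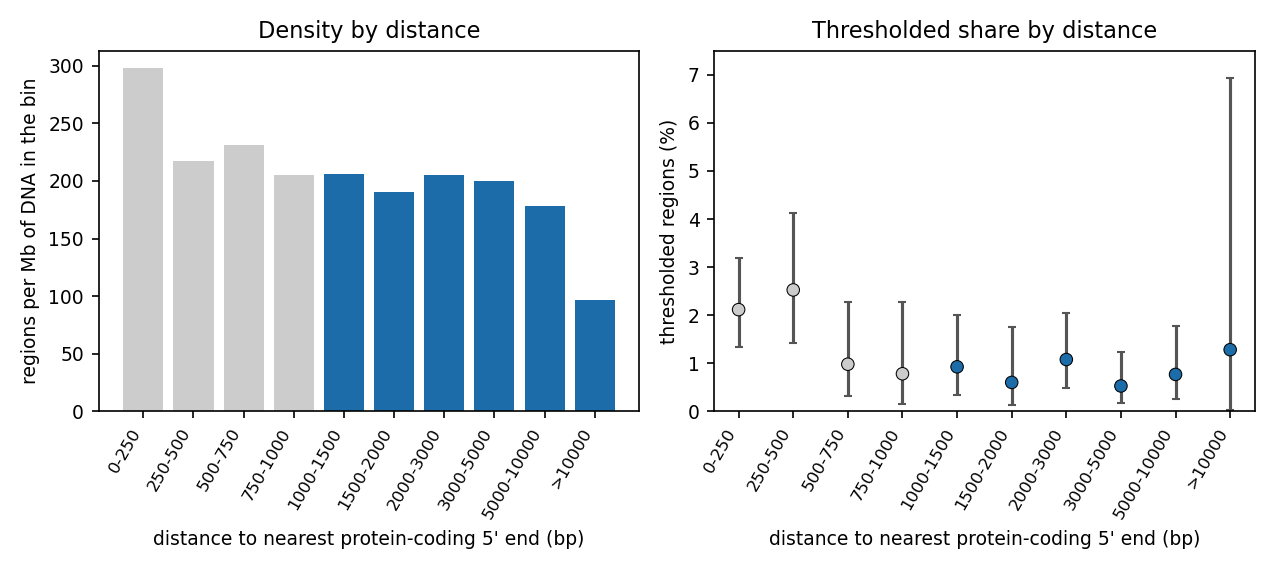
Intergenic regions by distance of the summit to the nearest protein-coding 5′ end, where blue bins meet the distal rule and grey bins fall short of its 1000 bp limit. Left, regions per Mb of DNA in the bin, and right, the thresholded share with exact binomial 95% intervals. Density falls from 298 per Mb to 96.3 per Mb, and the thresholded share is above 2% only in the first 500 bp.

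Gaps between neighbouring protein-coding genes were classed by the directions of the genes. A divergent gap has a 5′ end on both sides, a convergent gap a 3′ end on both sides, and a tandem gap 1 of each. There were 6588 gaps with DNA that met the rule, and 2113 of them (32.1%) held a distal region. Gaps with such DNA had a median length of 3318 bp, gaps with a distal region 5955 bp, and the 28 gaps with a thresholded one 6883.5 bp.

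Divergent gaps held 1194 distal regions (32.6%), convergent gaps 368 (10.1%) and tandem gaps 2092 (57.2%). Their shares of the DNA that met the rule were 35.0%, 11.4% and 53.5%, and their densities 179, 169 and 205 regions per Mb. Median signals were 36.8, 37.3 and 37.0. Neither number nor median signal thus set convergent gaps apart.

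The thresholded share was nevertheless highest in convergent gaps. It was 2.72% there (10 of 368, interval 1.31 to 4.94%), 0.503% in divergent gaps (6 of 1194, interval 0.185 to 1.09%) and 0.621% in tandem gaps (13 of 2092, interval 0.331 to 1.06%). On the X 7 of 83 convergent regions were thresholded (8.43%, interval 3.46 to 16.6%), against 1 of 313 divergent (0.319%) and 5 of 549 tandem ones (0.911%). On the autosomes the convergent share was also the highest, with 3 of 285 (1.05%, interval 0.218 to 3.05%), 5 of 881 divergent (0.568%) and 8 of 1543 tandem ones (0.518%), and these intervals overlapped. Whether the X and the autosomes differ in this was not tested. The 7 came from 6 gaps, since C30E1.4/F52G3.8 held 2 of them, and 3 of the 7 held the recruitment word. The count depended on the replicate: among the 393 highest regions of replicate 1's own list 6 distal regions were convergent, and among those of replicate 2's own list 9.

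**Figure D5:**
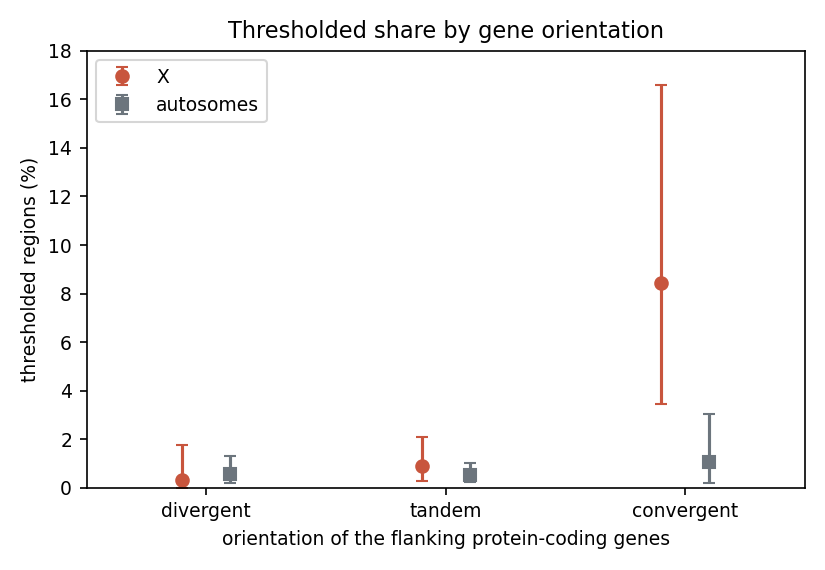
Share of distal intergenic regions that were thresholded, by the orientation of the flanking protein-coding genes, on the X (circles) and on the autosomes (squares), with exact binomial 95% intervals over regions. The X convergent share is 8.43% (7 of 83), and the other shares are at most 1.05%.

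Of 10513 protein-coding genes next to DNA that met the rule, 3878 (36.9%) flanked a gap with a distal region. Genes of 15 families, recognised by symbol, made up 1972 of the 10513, and 567 of these (28.8%) had a distal region beside them, against 38.8% of the genes of no listed family. Per Mb of the adjoining DNA the densities were 169 and 193.

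Among chemoreceptor genes, which encode the odorant and taste receptors of sensory neurons, 125 of 743 (16.8%) had a distal region beside them, at 138 regions per Mb of adjoining DNA. C-type lectins, secreted proteins of which many respond to pathogens, had 18 of 102 (125 per Mb), and F-box and MATH proteins 49 of 210 (144 per Mb). Genes of the cytochrome P450, UGT and GST detoxification families had 15 of 84 (160 per Mb). Neuropeptide and insulin genes had 42 of 110 (148 per Mb). These families had 23 to 152 distal regions each and 0 thresholded ones, and at the 0.793% of all distal regions a count of 0 is no result about them.

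The nuclear hormone receptor genes themselves had 71 of 175 (40.6%), at 207 per Mb, with a median signal of 36.5. Of their 147 distal regions 0 were thresholded, near the overall 0.793%. The gap between col-105 and nhr-41 held 9 distal regions and that between pix-1 and nhr-71 held 8. Homeobox genes had 32 of 62 (51.6%, 176 per Mb) with a median signal of 32.6, the lowest of the families with more than 50 regions. Other transcription factor genes had 52 of 91 (57.1%, 216 per Mb, median signal 39.97), and cell adhesion and signalling genes 40 of 64 (62.5%, 232 per Mb).

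Collagen and cuticle genes had 47 of 126 (37.3%, 210 per Mb), and the cuticlin-like genes cutl-21 and cutl-22 were the only members of a listed family, apart from dmd-6, beside a thresholded distal region. Ion channel and transmitter receptor genes had 56 of 126 (44.4%, 164 per Mb). Ribosomal protein genes rarely adjoined DNA that met the rule, with 14 of 78 in the annotation next to it and 8 of these beside a distal region. Of the 29 thresholded distal regions, 3 were beside a gene of a listed family, as were 893 of all 3659 distal regions (24.4%), and the families of the flanking genes were not tested against the rest.

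Distal regions were spread thinly over gaps, with 1300 of the 2113 gaps holding 1 region. At the other end, 94 gaps held at least 5 and together 557 regions. The gap between F54F12.1 and Y39E4B.6 on chromosome III, 15313 bp long, held 13, the highest number, and 10 of them fell within III:13056678-13064444. Those 10 had a median signal of 36.3 and reached 59.97, so they were numerous and not high. The thresholded region of this gap lay apart from them, at III:13068389-13068778, with signals of 59.4 and 58.2 in the replicates (mean 58.8 ± 0.9, SD, n = 2).

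The gap between plg-1 and K01F9.2 held 9 regions, 8 of them within III:8858420-8867560 with a median of 44.2 and a highest signal of 97.2. The microRNA genes mir-80 and mir-238 lie in this gap. The gap between M03D4.4 and C11D2.3 on IV held 8 with a median of 38.6. Gaps with 9 regions each were also found between F57G12.1 and cab-1 on the X and between tra-1, the master regulator of sex determination, and tbx-34 on III, and neither had a thresholded region.

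Agreement between the replicates was limited over the distal regions as a whole. Of the distal regions 1552 (42.4%, interval 40.8 to 44.04%) overlapped a region in both replicates' own lists, against 47.8% of all regions. Of the 3659 distal regions 215 overlapped one in neither list, as did 1507 of all 30000 regions. A pooled region took the signal of the highest replicate region that overlapped it by at least 1 bp. Neighbouring pooled regions could therefore share 1 replicate region, and matches were not all one-to-one. Over the 1552, the rank correlation of the replicates' signals was 0.268 (Spearman, a description over regions that share libraries). Over the 14332 such regions of the whole list it was 0.275. The median ratio of replicate 2 to replicate 1 was 0.944 in both sets. Without the thresholded regions, 1523 distal regions (41.96%) overlapped a region in both lists, with a rank correlation of 0.228. Within the 29 thresholded distal regions the correlation was 0.109, and within the thresholded regions outside the distal class 0.132. Those sets span a narrow range of high signals, so their correlations do not compare directly with that of all distal regions.

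All 29 thresholded distal regions were in both lists, as were 363 of the 364 others. The threshold was applied over these same replicates, so presence in both lists was largely fixed by the choice. Of the 29, 12 were among the 393 highest of both replicates, 19 of replicate 1 and 21 of replicate 2, and in 20 the signals were within 1.5-fold of each other. These counts were not made for the other 364 thresholded regions. On the X, 11 of 13 were higher in replicate 2, while on the autosomes 4 of 16 were. Of the other thresholded X regions 38 of 74 were higher in replicate 2. Over all distal regions in both lists, thresholded ones included, 42.4% were higher in replicate 2 on the X and 43.3% on the autosomes. Regions below the threshold were not counted apart.

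Some distal regions found in both lists were high in a single replicate. The region between R07A4.3 and sma-9, a Schnurri-type zinc finger gene of body size signalling, had 17.0 in replicate 1 and 52.2 in replicate 2, ranks 29296 and 343. The region between C36C5.12 and C36C5.14 had 51.8 and 16.1, ranks 387 and 28587. Such regions passed no threshold. The next in order of rank difference were those of R01E6.5/cah-4, mct-6/T01C8.3 and phy-2/F35G2.5, with pooled signals of 44.7, 53.0 and 50.5.

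No strong distal region adjoined the genes of the experiment's own design. The distal region nearest to nhr-27, between gei-3 and C52G5.2, was 13881 bp away and had a signal of 29.9 at rank 27387. That nearest to nhr-270, between K09C6.8 and srbc-13, was 41839 bp away with a signal of 30.9, and that nearest to unc-119, between zig-5 and W05B2.2, was 48402 bp away with 35.8. Their ranks in the pooled list were 25531 and 17842, so the first 2 of these regions lay low in the list and the one nearest to unc-119 lay below its middle.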

How the data were processed

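ChIP-seq regions came from 2 biological replicates of 1 group of young adults. The authors deposited a list of 30000 regions for each replicate, another for the pooled reads and a thresholded list of 393, on assembly ce11, which is WBcel235. The deposited signal value of each region is the authors' own, with no stated scale, and the deposited −log10 q values were not used to rank. Both describe regions within a list. The aligner, peak caller and irreproducible discovery rate threshold are not given in the sources used here, and the control alignment was not analysed here. Read depth is unknown.

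Summits were placed against genes of Ensembl release 115, and sequence came from the RefSeq genome of WBcel235. Computation used Python 3.11.15, numpy 2.4.6, pandas 2.3.3 and scipy 1.17.1. Overlap meant at least 1 bp. Words were searched on both strands, up to 100 bp to each side of a summit, and in windows 400 bp away. Arms were the outer 25% at each end. Clusters were runs within 10000 bp. Regions are not replicates, so counts are given beside the whole list with exact binomial 95% intervals, and no test was run. The distance rule, the overlap of regions and the word search were tested on simulated data, and the other steps were not. The members, gene families and words were chosen with earlier results of these data known. Named regions are the 25 highest thresholded ones, the 5 with the largest rank difference among those in both replicates' lists, those nearest to unc-119, nhr-27 and nhr-270, and the 3 densest clusters. The other thresholded regions, other gaps and X regions holding the recruitment word were named after their values were seen. Alternatives changed the distance limits, the gene classes, the list, the windows and the overlap.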

Additional observations from a re-analysis of the deposited data

How the results depend on the processing

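Of 112 alternative values, 61 were classed as unchanged and 51 as moved. The spread between replicates was the measure for shares, medians and densities with a value in each replicate's list. Counts of regions were judged by a fold limit. The 4553 regions at a 5′ limit of 500 bp and the 2512 at 2000 bp were thus classed as unchanged from 3659. The share in both lists and the share of copied summits have no value per replicate and were judged by a binomial interval. A move beyond the replicate spread is often small, because the replicates' own lists gave nearly equal shares. Where they differed more, larger shifts passed: the share on the X, 26.8% and 24.9% in the replicates' lists, was classed as unchanged from 25.9%. Such values from a single replicate's list were judged by a spread made from those same values. The 61 and 51 are therefore no measure of how stable the results are. With a 5′ limit of 500 bp the share overlapping a thresholded region was 1.16%, the ratio of the median signal to that of the list 0.972, the arm share 51.1%, the density 197 per Mb, the divergent share 35.1% and the GAGAGA share 20.4%. With 2000 bp they were, without the unmoved median, 1.07%, 53.1%, 189 per Mb, 30.02% and 20.1%. With a 3′ limit of 1000 bp the same 6 were 0.973%, 0.968, 52.8%, 183 per Mb, 40.04% and 21.4%, and mean GC content 40.4%. With a small RNA limit of 200 bp the overlap share was 1.22%, and with 1000 bp the GAGAGA share was 20.01%. Outside protein-coding genes only, the overlap share was 1.05%, the arm share 53.4%, the density 200.8 per Mb, the share beside a listed family 25.98%, mean GC 40.5% and GAGAGA 19.5%.

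With a single replicate's list the ratio of medians was 0.966 to 0.968, the arm share 51.2 to 51.6% and the density 197 to 200.3 per Mb. Mean GC was 39.0 to 39.3% and the GAGAGA share 18.9 to 19.03%. A single replicate has no thresholded list. Convergent distal regions were instead counted among the 393 highest of its own list, and were 6 in replicate 1 and 9 in replicate 2. The ranges of the overlap, divergent and listed-family shares were 1.07 to 1.12%, 32.8 to 34.4% and 24.3 to 25.1%. The share in both replicates' lists has no value then. The overlap share was 0.793% when the summit had to lie inside a thresholded region or the region be one itself, and 0.547% for the thresholded regions above their median signal. The arm share was 69.4% when the centre was narrowed to the middle of 3 equal parts and 49.6% on autosomes alone. Overlap of at least 50% of a region put 34.5% in both lists. Windows of 50 and 200 bp to each side gave mean GC of 40.7 and 39.0% and GAGAGA shares of 11.6 and 32.2%. With 50 bases, 1.56% of summits had a copy. Unique or little-repeated summits kept 12 thresholded regions on the X and regions that overlap no other 10. Depth cannot be weighed, since no read counts were used.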
